A study of Mus musculus with 4 samples.

Results

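Transcripts of 10 selenoprotein genes were examined in long-read RNA sequencing of the embryonic mouse forebrain, out of 16449 genes in the count table. The 10 are Selenow, Selenof, Selenok, Selenom, Selenop, Selenos, Selenot, Gpx1, Gpx4 and Txnrd1. They were chosen as selenoproteins, and Selenow was selected on its counts in these 4 libraries, which were higher in those labelled Tut1 knockout, so the difference of Selenow between the groups is described here and not tested. At E11.5, tissue was taken from the dorsal and medial pallium, the forebrain wall from which the neocortex and the hippocampus arise. Of the 4 libraries, 2 are labelled wild type (WT) and 2 Tut1 knockout. TUT1, the enzyme encoded by Tut1, puts a uridine tail on U6 snRNA, a core RNA of the spliceosome. The floxed Tut1 allele has loxP sites around exon 2. In the study every library came from embryos homozygous for it, so that WT means floxed embryos without Cre and knockout means floxed embryos carrying Emx1-Cre. Emx1-Cre acts in the neural stem cells of the dorsal and medial pallium, and other cells of the tissue, such as blood vessel cells, blood cells and microglia, keep the floxed allele. Neither the number of embryos in each library nor whether the replicates are separate embryos is stated. The p-values therefore measure only the spread between these samples, which may be technical for the knockout-labelled pair and in part for the WT pair.

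Selenoproteins contain selenocysteine, an amino acid that has selenium in place of the sulfur of cysteine. It is encoded by TGA (UGA in the mRNA), a codon that otherwise ends translation, and is inserted when a hairpin in the 3′ untranslated region recruits SECIS-binding protein and a dedicated elongation factor that carries the selenocysteine tRNA. Most of the proteins with a known function are oxidoreductases that keep lipids, peroxides and protein thiols reduced, and the brain holds on to selenium when the supply is low. Because the ribosome can read the same codon as a stop, a TGA well upstream of the last exon junction can also mark a selenoprotein mRNA for nonsense-mediated decay.

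The codon and its surroundings are shown because they are what the 10 genes share by definition and because their position in the transcript differs. The GENCODE M21 annotation on GRCm38 marks a selenocysteine in 24 mouse genes, the 10 examined and 14 others. The 10 genes hold 1 in-frame TGA each, except Selenop with 10. In Selenow the TGA is codon 13 of 88, on the minus strand at chr7:15920464-15920466 in an exon of the gene that spans chr7:15917208-15922402. It is codon 49 of 195 in Selenot (plus strand, chr3:58585238-58585240), 48 of 145 in Selenom (plus strand, chr11:3516273-3516275), 47 of 201 in Gpx1 (plus strand, chr9:108339451-108339453) and 73 of 197 in Gpx4 (plus strand, chr10:80054737-80054739). By contrast, it is among the last codons in Selenok (92 of 94, plus strand, chr14:29973440-29973442) and Txnrd1 (498 of 499, plus strand, chr10:82896037-82896039). The windows run 5′ to 3′ along the coding strand from 4 codons before the TGA to 5 after it, or to the stop codon where that comes first, and capitals mark the selenocysteine codon.
Selenow: tattgtggagctTGAggctataagcccaag
Selenot: atttgtgtatccTGAgggtaccggcgggtg
Selenom: acctgtggaggaTGAcagttgaatcgccta
Gpx1: gtcgcgtctctcTGAggcaccacgatccgg
Gpx4: gtggcctcgcaaTGAggcaaaactgacgta
Selenok: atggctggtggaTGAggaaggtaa
Txnrd1: cagtctggctgcTGAggttaa

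In Selenow, Selenot and Selenom a cysteine codon (tgt) precedes the TGA by 3 codons, which gives the cysteine and selenocysteine pair of a thioredoxin-like redox centre. These are the only members with that spacing, and 6 of all 24 annotated selenoprotein genes have it. Txnrd1 has the cysteine codon (tgc) directly before the TGA. The first TGA lies more than 55 nt upstream of the last exon junction in 7 of the 10 members, the usual distance rule for nonsense-mediated decay. The distance was 243 nt in Selenow, 342 nt in Gpx4, 105 nt in Gpx1 and 5 nt in Selenok. In Txnrd1 and Selenos the TGA lies in the last exon, 63 and 80 nt after the last junction. By codon number, the TGA of Selenow was the earliest of the 10, followed by that of Gpx1. The other members past the 55 nt distance were Selenom, Selenot, Selenop and Selenof.

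**Figure D1:**
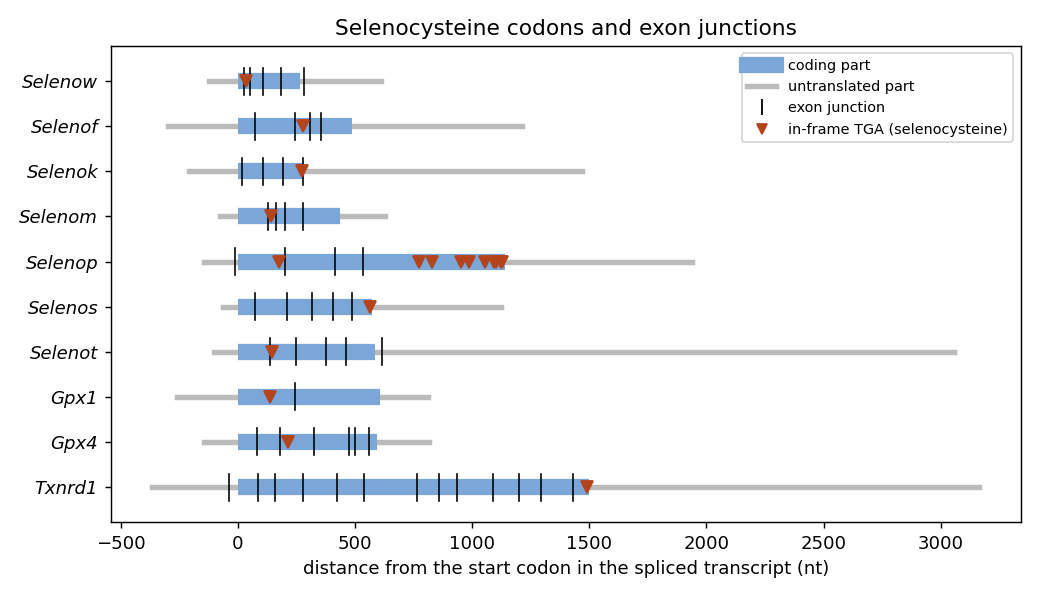
Spliced transcript of each of the 10 genes against the distance from its start codon (nt), with the coding part in blue, the untranslated parts in grey, exon junctions as black ticks and in-frame TGA codons as red triangles. Selenow has its TGA near the start of a coding part of 267 nt, Selenok and Txnrd1 have it at the end, and Selenop has 10.

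The table holds 305642 to 397150 counts per library, much less than the number of reads the study lists, and what became of the rest is not given in the sources used here. It had a median of 19 to 25 counts among the 5878 genes that passed a filter on low counts and were tested. Between the groups, 121 of the tested genes (2.06%) passed an adjusted p of 0.05 in edgeR's quasi-likelihood test. Tut1 itself had 6 and 11 counts in WT, against 29 and 25 in the knockout-labelled libraries, a log2 fold change of 1.71 ± 0.40 (SE, adjusted p = 0.0113), and so was higher, not lower, in the knockout-labelled libraries. Its call was lost without WT replicate 1, knockout-labelled replicate 1 or knockout-labelled replicate 2, at log2 fold changes of 1.39, 1.80 and 1.63. After thinning it was lost as well (adjusted p = 0.0908 in edgeR's test), at 1.70. Counts per gene do not tell whether exon 2 was read, and its loss need not lower them. The Tut1 counts therefore check neither the deletion nor the labels. Genes with a count numbered 12442 and 12788 in WT and 13158 and 12522 in the knockout-labelled libraries. The study lists the same numbers of detected genes for its floxed and its Emx1-Cre samples. Xist, the RNA of the inactive X chromosome, had 64 counts in WT replicate 1 and 0 in the other 3 libraries. WT replicate 1 was thus the only library with RNA of female cells. The WT libraries were therefore not drawn from the same RNA, and the spread between them is not only technical.

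Selenow encodes a small cytosolic selenoprotein with a thioredoxin-like fold that is abundant in muscle and brain. It (ENSMUSG00000041571) had 77 and 64 counts in WT replicates 1 and 2, and 172 and 140 in knockout-labelled replicates 1 and 2. In CPM, these were 233 and 179 against 457 and 486. CPM are counts scaled to a total of 1000000 over a library's tested genes, adjusted by a scaling factor for each library. The groups did not overlap, the knockout-labelled libraries being the higher, as in 22.1% of all tested genes. The group means were 206 ± 38.5 CPM in WT and 472 ± 20.6 CPM in the knockout-labelled libraries (SD, n = 2 each). The difference came to 1.20 ± 0.19 on the log2 scale (SE), or 2.29-fold. Among listed genes ordered by count, Selenow moved from ranks 734 and 1003 in WT to rank 300 in both knockout-labelled libraries. Removing WT replicate 1 gave 1.39 and removing WT replicate 2 gave 1.00 on the log2 scale. No other annotated gene overlapped Selenow, and no transcript of another gene matched it over at least 200 nt at 90% identity, so no near-identical copy of it was found.

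**Figure D2:**
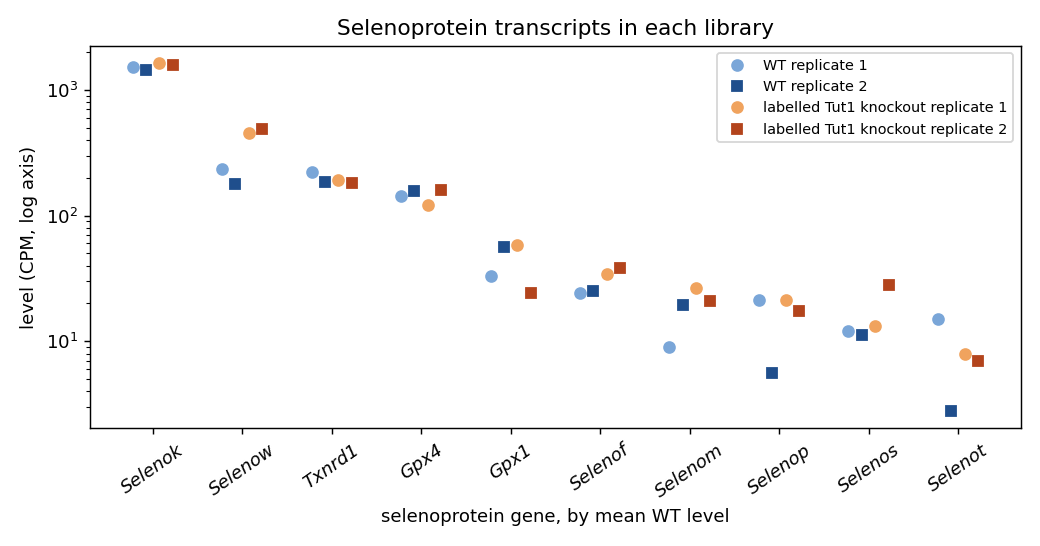
Level of each selenoprotein gene (CPM, log axis) in the 2 WT libraries (blue) and the 2 libraries labelled Tut1 knockout (orange and red), ordered by mean WT level. Selenow stands at 233 and 179 CPM in WT and at 457 and 486 CPM in the knockout-labelled libraries, while the 2 groups lie closer together for Selenok, Txnrd1 and Gpx4.

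Of the 10 genes 1 was called, Selenow, and 6 passed the filter on low counts. The share called higher among all tested genes was 1.4%, and since Selenow was chosen for this difference nothing is read from its own call. The count of called members fell to 0 when knockout-labelled replicate 1 was left out, where 3 genes were called in all, although the log2 fold change of Selenow was then 1.24 ± 0.23 (SE). None of the other 5 tested members was called by edgeR or limma-voom, and none had an unadjusted p below 0.05 in edgeR, beside 14.2% of all tested genes. DESeq2, whose independent filter left 1047 genes with an adjusted p, gave one for Selenok and Txnrd1 only and called neither. In a fit without the filter, the median log2 fold change over the 10 was 0.34, beside 0.05 over all genes with a count. That median includes Selenow, and over the other 9 members it was 0.13, the value of Selenok. Of these 9, 5 had positive values, beside 55.6% of all genes in that fit. Leaving out a library moved the median of the 10 between 0.16 and 0.37, with the lowest value without WT replicate 2.

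Selenok (ENSMUSG00000042682), a transmembrane protein of the endoplasmic reticulum (ER) that takes part in protein palmitoylation and in the removal of misfolded proteins, was by far the most abundant. Its counts were 500 and 510 in WT, against 611 and 457 in the knockout-labelled libraries, or 1515, 1424, 1624 and 1587 CPM. The knockout-labelled libraries lay above the WT libraries in CPM, but the gap was small. The log2 fold change was 0.13 ± 0.12 (SE, adjusted p = 0.704), with a 95% interval of -0.11 to 0.37. This is the best measured member, and it ranked between 61 and 72 among all genes by count in every library. Selenok has 7 annotated partial matches at 90% identity or more, over 16.7% to 43.3% of its transcript, and none is listed in the table. Among them the non-coding RNA Gm48228 matches in the opposite orientation. How reads shared with such matches were assigned is not stated.

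Selenof, a thioredoxin-like ER protein that binds the glycoprotein-folding sensor UGGT, had 8 and 9 counts in WT, against 13 and 11 in the knockout-labelled libraries. It reached the filter's rate of 26.5 CPM only in the knockout-labelled libraries, so that a positive value was favoured by the filter itself. That rate is taken on all counts of a library, so it is not on the same scale as the CPM values printed here. Its log2 fold change was 0.54 ± 0.48 (SE, adjusted p = 0.686, 95% interval -0.42 to 1.51), and the levels of 24.2 and 25.1 CPM against 34.5 and 38.2 CPM did not overlap. Selenos, a partner of the ER channel that exports misfolded proteins, had 4 and 4 counts in WT, against 5 and 8 in the knockout-labelled libraries (12.1 and 11.2 against 13.3 and 27.8 CPM). Selenom, an ER protein with a thioredoxin-like fold, had 3 and 7 against 10 and 6 counts (9.09 and 19.6 against 26.6 and 20.8 CPM). Selenot, an ER membrane oxidoreductase of the same structural family as Selenow, had 5 and 1 against 3 and 2 counts, and its groups overlapped at 15.1 and 2.79 against 7.97 and 6.95 CPM. Selenom, Selenos and Selenot were below the filter and were not tested, and their log2 fold changes in the fit without the filter had standard errors of 0.60 to 0.95. In CPM, 4 of the 9 members other than Selenow (Selenof, Selenok, Selenom and Selenos) had both knockout-labelled libraries above both WT libraries and none had both below. The shares among tested genes were 22.1% and 20.8%, but only Selenof and Selenok of the 4 were tested, so the count is given as a description.

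Neither glutathione peroxidase passed the test. Gpx4 (ENSMUSG00000075706), which reduces lipid peroxides in membranes and protects cells from ferroptosis, had 47 and 56 counts in WT, against 46 and 46 in the knockout-labelled libraries. In CPM these were 142 and 156 against 122 and 160, with overlapping groups. The log2 fold change was -0.10 ± 0.25 (SE, adjusted p = 0.915, 95% interval -0.61 to 0.41). Gpx1, the cytosolic enzyme that reduces hydrogen peroxide, had 11 and 20 counts in WT, against 22 and 7 in the knockout-labelled libraries, and each group held both a high and a low library. Its log2 fold change was -0.05 ± 0.42 (SE, adjusted p = 0.978, 95% interval -0.91 to 0.80). Reads of Gpx4 are uncertain, because Gpx4-ps2, a transcribed pseudogene named after its values were seen, is 99.7% identical over 762 nt. It had 16, 14, 7 and 11 counts in WT replicates 1 and 2 and knockout-labelled replicates 1 and 2. Summed over Gpx4 and its 2 listed copies, the levels were 194 and 204 CPM in WT, against 149 and 212 CPM in the knockout-labelled libraries, which again overlapped.

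Txnrd1 (ENSMUSG00000020250), the cytosolic thioredoxin reductase that supplies electrons to thioredoxin, had 73 and 66 counts in WT, against 72 and 52 in the knockout-labelled libraries. The levels of 221 and 184 CPM in WT overlapped those of 191 and 181 CPM in the knockout-labelled libraries. The log2 fold change was -0.12 ± 0.23 (SE, adjusted p = 0.886, 95% interval -0.58 to 0.34). Selenop, the secreted protein that carries selenium between tissues and is made mostly in the liver, had 7 and 2 counts in WT, against 8 and 5 in the knockout-labelled libraries (21.2 and 5.59 against 21.3 and 17.4 CPM, overlapping), and was not tested.

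**Figure D3:**
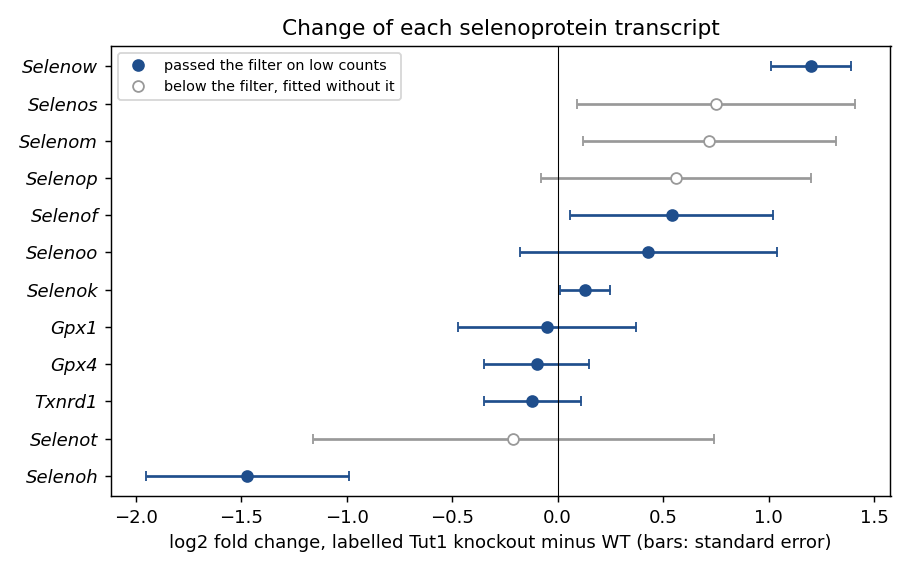
Log2 fold change (libraries labelled Tut1 knockout minus WT) of the 10 genes and of the tested selenoproteins Selenoh and Selenoo, with bars of 1 standard error, filled where the gene passed the filter on low counts and open where it was fitted without the filter. Selenow lies at 1.20, Selenok, Gpx1, Gpx4 and Txnrd1 lie within 0.13 of 0, and Selenoh lies at -1.47.

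As another description of the counts by which Selenow was chosen, it made up 10.5% and 8.66% of the counts of the 10 genes in WT, and 17.9% and 19.1% in the knockout-labelled libraries. The share of Selenok was 68% and 69% in WT, against 63.5% and 62.3% in the knockout-labelled libraries, while its own CPM was not lower there, and the ratio of Selenok to Selenow counts went from 6.49 and 7.97 to 3.55 and 3.26. Summed over all 10 genes, the level was 2226 and 2064 CPM in WT, against 2557 and 2549 CPM in the knockout-labelled libraries. Without Selenow it was 1993 and 1885 CPM against 2099 and 2063 CPM, the knockout-labelled libraries again being the higher, with Selenok making up most of each sum. Without Selenow and Selenok, the remaining 8 genes summed to 479 and 461 CPM in WT and to 476 CPM in each knockout-labelled library, a difference smaller than that between the WT replicates.

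Levels of different genes were compared per kilobase of the longest annotated transcript. A long read can span a whole molecule, so the order in CPM without length is given too. In WT, Selenok stood at 876 ± 37.9, Selenow at 280 ± 52.3, Gpx4 at 150 ± 9.98, Txnrd1 at 56 ± 7.18 and Gpx1 at 41.6 ± 14.9 CPM per kb (SD, n = 2). The remaining members lay between 9.78 for Selenos and 2.84 for Selenot. The ranges of the WT libraries overlapped for the neighbours Txnrd1 and Gpx1 and for every neighbouring pair from Selenos down, and the other neighbours were separated. In the knockout-labelled libraries Selenow reached 641 ± 28 CPM per kb, still below Selenok at 957 ± 15.4. In CPM without length, Selenow (206) and Txnrd1 (203) could not be ordered in WT. With the median length of the coding transcripts instead of the longest, Selenos moved from the sixth place to the ninth. Selenof then stood at 21 CPM per kb in place of 9.15, and Selenom at 20.3 in place of 9.69. Selenop stood at 19.2 in place of 6.42, and Gpx1 at 56.7 in place of 41.6.

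**Figure D4:**
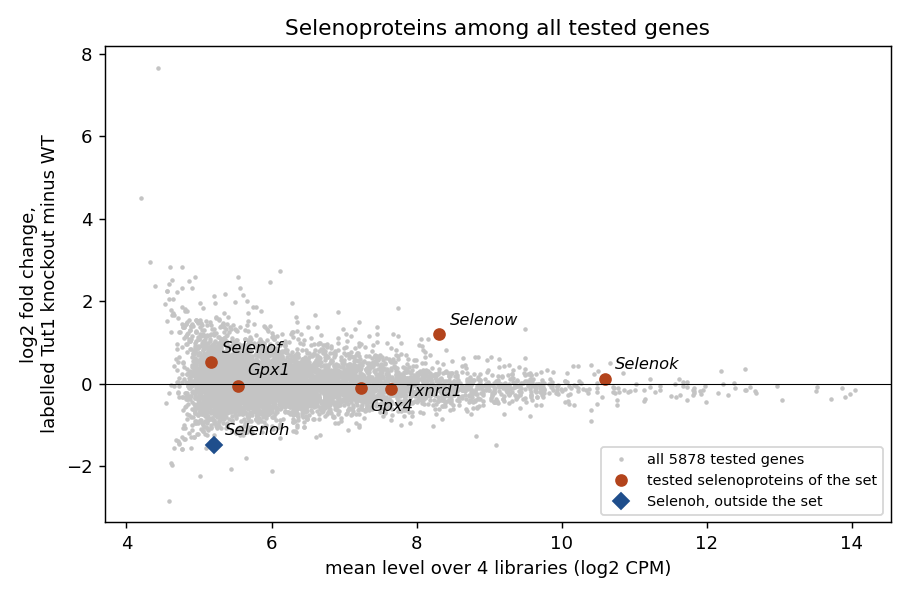
Log2 fold change (libraries labelled Tut1 knockout minus WT) against the mean level (log2 CPM) of the 5878 tested genes in grey, with the 6 tested members in red and Selenoh in blue. Selenow lies at 1.20, and Selenok, the most abundant member, lies at 0.13.

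Of the 14 other selenoprotein genes, 10 had counts and only Selenoh and Selenoo were tested. Selenoh, a nuclear selenoprotein with a thioredoxin-like fold, had 18 and 17 counts in WT, against 5 and 7 in the knockout-labelled libraries, or 54.5 and 47.5 against 13.3 and 24.3 CPM. Both knockout-labelled libraries lay below both WT libraries, opposite to Selenow. The log2 fold change was -1.47 ± 0.48 (SE), with an unadjusted p of 0.00366 and an adjusted p of 0.0973 in edgeR's test across all genes, and so it did not pass. Selenoh reached the filter's rate only in WT, which favours a negative value. It shares with Selenow the cysteine codon 3 before the TGA.
Selenoh: cattgtacgagcTGAcgcgtgtacggccgc
Selenoo, a mitochondrial protein that attaches AMP to other proteins, had 2 and 11 counts in WT, against 11 and 6 in the knockout-labelled libraries (log2 fold change 0.43 ± 0.61, SE, adjusted p = 0.836). The other 8 genes with counts (Dio3, Gpx3, Txnrd2, Txnrd3, Msrb1, Selenoi, Selenon and Sephs2) had at most 9 counts in any library. Dio1, Dio2, Gpx2 and Selenov are not listed in the table. In all, 0 of these genes were called by edgeR or limma-voom, 1 (Selenoh) had an unadjusted p below 0.05, and DESeq2 gave none of them an adjusted p.

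The machinery that makes and inserts selenocysteine was next examined, as were genes that work beside selenoproteins. Of 7 genes for selenocysteine synthesis and insertion, 6 were tested and 0 were called by edgeR or limma-voom (DESeq2 gave no adjusted p), with 0 at an unadjusted p below 0.05 (14.2% of all tested genes) and a median log2 fold change of -0.12 (-0.01 over all tested genes). Trnau1ap, which binds the selenocysteine tRNA, had 55 and 46 counts in WT, against 49 and 30 in the knockout-labelled libraries (-0.31 ± 0.26, SE, adjusted p = 0.663). Pstk, the kinase that phosphorylates the serine on that tRNA, had 25 and 42 against 39 and 29 counts (0.08 ± 0.29, SE, adjusted p = 0.948). The groups overlapped in both genes.

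Of 4 genes for selenium supply, 3 are listed and 1 was tested. Lrp8, the receptor through which the brain takes up Selenop, had 58 and 60 counts in WT, against 59 and 53 in the knockout-labelled libraries (log2 fold change -0.02 ± 0.24, SE, adjusted p = 0.984). Scly, which releases selenium from selenocysteine, had 1, 3, 1 and 0 counts.

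Among 27 redox enzymes without selenocysteine, 12 were tested and 0 were called by edgeR, limma-voom or, among the 4 with an adjusted p, DESeq2, with 1 at an unadjusted p below 0.05. Their median log2 fold change was -0.23, and 8 of the 12 had negative values. The most abundant were Glrx5, a mitochondrial glutaredoxin of iron-sulfur cluster assembly (-0.24 ± 0.14, SE, adjusted p = 0.453), and Prdx2, a cytosolic peroxiredoxin (-0.15 ± 0.20, SE, adjusted p = 0.822). Of 11 ER genes that act with Selenok, Selenos or Selenof, 8 were tested and 0 were called by edgeR or limma-voom (DESeq2 gave no adjusted p), with 1 at an unadjusted p below 0.05 and a median of -0.07. Vcp, the ATPase that pulls misfolded proteins from the ER, had a log2 fold change of -0.30 ± 0.25 (SE, adjusted p = 0.663), and Hspa5, the main ER chaperone, one of 0.41 ± 0.31 (SE, adjusted p = 0.606).

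The 3 tested genes whose profile over the 4 libraries was closest to that of Selenow were Camk1d, C9orf72 and Rtn1. Likeness was measured as the root mean square distance between log2 CPM values centred on each gene's mean, which was 0.0581, 0.0664 and 0.0923, beside a median of 0.653 over tested genes. Camk1d had 7 and 6 counts in WT, against 17 and 15 in the knockout-labelled libraries. C9orf72 had 5 and 4 against 12 and 11 counts, and Rtn1, a reticulon of the ER membrane, 20 and 19 against 55 and 43 counts. Camk1d and C9orf72 reached the filter's rate of 26.5 CPM only in the knockout-labelled libraries, and all 3 were picked for their likeness to a profile that was itself chosen for its rise. Among the other 5 tested members, Selenof (0.388, with 513 genes closer to Selenow, and also over the filter only in the knockout-labelled libraries) and Selenok (0.539, 1569 genes closer) were nearer than the median gene. Txnrd1 (0.654) and Gpx4 (0.669) stood close to the median, and Gpx1 (0.869) was farther, with 5167 genes closer.

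Markers of cell types also moved between the groups, and in bulk tissue fewer cells of a type and less RNA per cell cannot be told apart. The labelled tissue expressed its markers, since the 10 pallial progenitor genes summed to 2202 and 2003 CPM in WT and to 1278 and 1466 CPM in the knockout-labelled libraries. Of their 7 tested members 1 fell (Lhx2, -1.49 ± 0.18, SE, adjusted p = 6.48e-07), and 6 had negative values. Of these 7, limma-voom called 2, and 2 had an unadjusted p below 0.05 in edgeR, beside 14.2% of all tested genes. Among all tested genes 0.663% were called lower and 1.4% higher. The 10 neuron markers summed to 1381 and 1357 CPM in WT, against 2227 and 2004 CPM in the knockout-labelled libraries, and 2 of 9 tested rose. All 9 had positive values, 7 had an unadjusted p below 0.05 and limma-voom called 3. The called genes were Mapt (1.83 ± 0.22, SE, adjusted p = 8.85e-07) and Dcx (1.17 ± 0.24, SE, adjusted p = 0.00461), the latter by about as much as Selenow, while Reln had 0 counts in both WT libraries. The 10 macrophage and microglia markers summed to 109 and 106 against 425 and 354 CPM, and all 4 tested rose (3 by limma-voom), among them Cx3cr1 (2.33 ± 0.42, SE, adjusted p = 0.000755), Aif1 and Csf1r. Their C1qa, Fcrls and Mrc1 had 0 counts in WT. Cx3cr1, Aif1, Dlx1, Col1a2 and Pecam1 reached the filter's rate of 26.5 CPM only in the knockout-labelled libraries, so that the filter favoured a rise. Subpallial markers summed to 15.1 and 72.6 against 186 and 97.2 CPM (Dlx1 called of 2 tested, Dlx2 and Dlx5 at 0 in WT), mesenchyme markers to 90.9 and 232 against 433 and 288 CPM (Col1a2 called of 3 tested), endothelial markers to 96.9 and 106 against 181 and 170 CPM (0 of 2 tested called by edgeR or limma-voom, Flt1 and Pecam1, with 0 at an unadjusted p below 0.05) and red cell markers to 1330 and 1757 against 2150 and 1434 CPM (Hbb-bh1 called lower of 5 tested, of which 3 had positive values, with a median log2 fold change of 0.24). Without knockout-labelled replicate 1, Mapt remained called and the other called markers named here did not, with adjusted p from 0.0539 for Lhx2 to 0.63 for Hbb-bh1. Dcx, Dlx1, Csf1r, Hbb-bh1 and Col1a2 were also lost without knockout-labelled replicate 2 (adjusted p from 0.0616 to 0.0899), Dlx1, Csf1r and Col1a2 without WT replicate 1 (from 0.0574 to 0.127) and Hbb-bh1 without WT replicate 2 (0.565). After thinning to the smallest library, Dcx (0.0843), Dlx1 (0.173), Aif1 (0.0506), Csf1r (0.0605), Hbb-bh1 (0.231) and Col1a2 (0.105) were above the threshold, as was Col1a2 by limma-voom (0.0872). DESeq2 called Lhx2 and Mapt, gave Dcx an adjusted p of 0.11, and called 0 of the macrophage, subpallial, mesenchyme and red cell markers, for most of which it gave no adjusted p. The part of these cell types in the difference of Selenow was not tested.

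**Figure D5:**
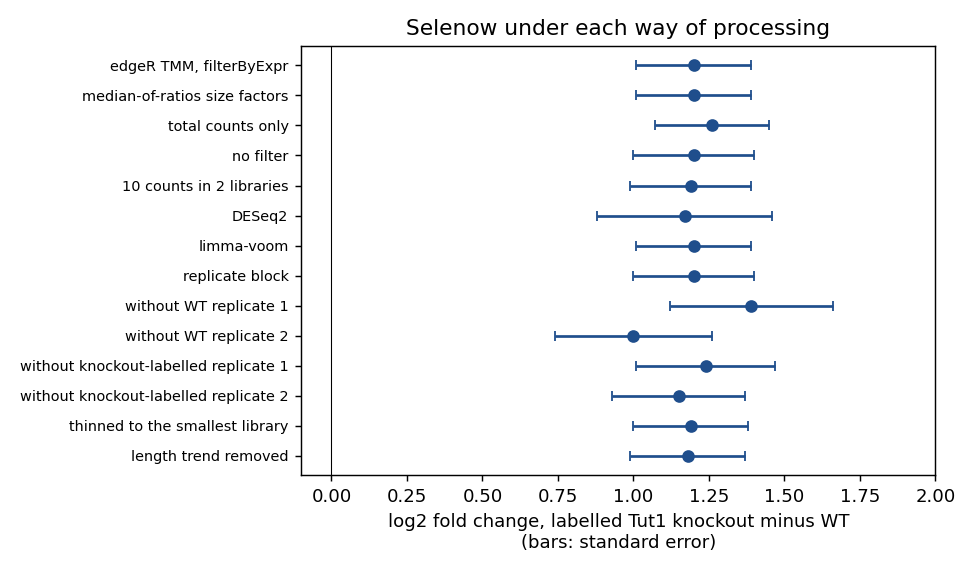
Log2 fold change of Selenow (libraries labelled Tut1 knockout minus WT) in the fit as reported, at the top, and under 13 other ways of processing the counts, with bars of 1 standard error. All values lie between 1.00, without WT replicate 2, and 1.39, without WT replicate 1.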

How the data were processed

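The authors sequenced poly(A)-enriched RNA on a Nanopore instrument, aligned reads with minimap2 to the Ensembl mouse transcriptome (GRCm38) and processed them with FLAIR. The deposited table holds raw counts per gene, with no normalization. How isoforms were summed per gene, whether strand was used and how reads of near-identical genes were assigned are not given in the sources used here. Splicing was not analysed here.

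Groups came from the sample labels, and 2 libraries per group entered every fit. Symbols, transcript models and sequences came from GENCODE M21, an older release on the same build, which left 13 identifiers unmatched. Counts were tested with edgeR 4.0.16 in R 4.3.3 (filterByExpr at its defaults, min.count 10 and min.total.count 15, then TMM, glmQLFit and glmQLFTest, two-sided, Benjamini-Hochberg over the 5878 tested genes). The test leaned on 37.5 prior beside 2 residual degrees of freedom. CPM used TMM-scaled totals of the tested genes, and log2 CPM a prior count of 2. The filter's rate used all counts of a library. Changes of genes below the filter came from the same fit without a filter. Copies were sought with blastn 2.17.0. The procedure was tested on simulated counts. Replicates were compared by chi-square over genes (1.5 per degree of freedom in WT and 1.43 in the knockout-labelled libraries), so neither pair is 1 library deposited again.

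The members and gene lists were chosen with earlier results of these data known. The genes named were the 10 members, Tut1, other selenoproteins with counts, up to 3 called members of each list (otherwise its 2 most abundant), and the 3 genes nearest to Selenow in profile. Alternatives to the scaling were the median-of-ratios method and unscaled totals (total counts only). The filter was dropped, or set to 10 counts in 2 libraries. Further alternatives were DESeq2 1.42.0, limma-voom (limma 3.58.1), a replicate block, leaving out each library, a single draw of counts thinned to the smallest library, and removal of the trend on transcript length (loess span 0.5).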

Additional observations from a re-analysis of the deposited data

How the results depend on the processing

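The log2 fold change of Selenow ranged from 1.00 to 1.39 when 1 library was left out and from 1.17 to 1.26 in the other settings. With the replicate number as a block it was 1.20, the number of genes called was 76 in place of 121, 1 selenoprotein was called and the median of the 10 was 0.33. Same-numbered libraries did not deviate together across tested genes (correlation -0.0614). With few counts per gene a shared deviation can stay hidden, so this does not decide whether the numbers pair the samples. DESeq2 called 13 of the 1047 genes to which it gave an adjusted p, thinning left 23, and leaving out 1 library left 3 to 108 genes, with the lowest number without knockout-labelled replicate 1. The number of selenoproteins called was 0 to 1 when a library was left out and 1 otherwise. The 1 is Selenow, chosen on these counts, so its repeated call is no sign of stability. None of the other 5 tested members was called in a setting that gave it an adjusted p, and DESeq2 gave none for Selenof, Gpx1 and Gpx4.

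Small changes turned sign. On the log2 scale, Gpx1 was at 0.01 and Lrp8 at 0.04 with total counts only, and Txnrd1 was at 0.05 after thinning. With 1 library left out, Gpx1 ranged from -0.88 to 0.38, Gpx4 from -0.29 to 0.09, Txnrd1 from -0.26 to 0.01, Pstk from -0.20 to 0.42, Lrp8 from -0.13 to 0.10 and Selenoo from -0.27 to 2.00. The cause was not tested. Few counts in the table limit the members under the filter, whose highest count in a library was 10.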
